A study of Mus musculus with 4 samples.

Results

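The miRNAs described here are those of the hairpins miR-144, miR-451a, miR-486 and miR-3107, which are best known from red blood cells and their precursors. They were taken by hairpin name, either arm, from the table of miRNAs that were higher in the MRL/lpr library. This gave 6 of the 114 named miRNAs in the miRNA tables, or 5 of 109 once identical sequences were counted once, since miR-486-5p and miR-3107-5p are the same sequence. None of these hairpins stood in the table of lower miRNAs. Partner mRNAs are the 11 of 212 mRNAs in the table of lower mRNAs to which the prediction list of the study assigns 1 of these miRNAs.

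The libraries came from splenic CD4+ T cells of 1 C57BL/6J (B6) mouse and 1 MRL/lpr-Tnfrsf6lpr (MRL/lpr) mouse, both female and 16 weeks old, with 1 small RNA and 1 mRNA library for each. MRL/lpr mice carry the lpr mutation of *Fas*, a death receptor of lymphocytes also called *Tnfrsf6*, on the MRL background and develop a lupus-like disease, whereas B6 mice do not. The background strain, the mutation, the disease and the single mouse therefore cannot be told apart. The T cells were enriched by depleting other spleen cells with magnetic beads. The design text mentions a second B6 mouse, while the sample labels give 1. After trimming, 33634335 small RNA reads remained for B6 and 29971024 for MRL/lpr, so 1 read was worth 0.0297 and 0.0334 RPM (reads scaled to a common number of trimmed reads). Intervals are 95% exact Clopper-Pearson limits of read counts and cover counting error only. No test between the strains was possible with 1 library for each. Every listed miRNA differed 2-fold or more and had 100 reads or more in the pair of libraries. A fold above 2 is thus a condition of being listed, and a larger one where a higher miRNA had few B6 reads.

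MiR-144 and miR-451a are cut from a single primary transcript, which the transcription factor GATA1 switches on as red blood cells form. MiR-451a is matured in an uncommon way, by the slicer Ago2 in place of Dicer. MiR-486 is made from an intron of *Ank1*, the gene of the ankyrin that ties the red cell membrane to its skeleton, and also from that gene in muscle. Red blood cells keep these miRNAs after losing their nucleus, and in mice miR-144 and miR-451a protect red cell precursors from oxidative stress.

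The sequences of the 5 mature miRNAs are given as the miRNA tables hold them, to show that no members share a seed. Capitals mark the seed, bases 2 to 8, with which a miRNA pairs to its targets, and T stands for U.
miR-144-3p: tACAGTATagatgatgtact
miR-144-5p: gGATATCAtcatatactgtaagt
miR-451a: aAACCGTTaccattactgagtt
miR-486-5p and miR-3107-5p: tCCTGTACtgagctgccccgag
miR-486-3p: cGGGGCAGctcagtacaggat
No other listed miRNA had any of these 5 seeds. The miR-144 and miR-451a sequences are rich in A and T, with a GC content of at most 36.4%, whereas those of miR-486 have 61.9% and 63.6%.

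MiR-144 and miR-451a lie on the plus strand of chromosome 11 in the RefSeq annotation of GRCm38.p6, at chr11:78073005-78073070 and chr11:78073170-78073241, with 99 bases between the hairpins. The hairpins are shown with the mature miRNAs in capitals, because their shapes differ.
Mir144: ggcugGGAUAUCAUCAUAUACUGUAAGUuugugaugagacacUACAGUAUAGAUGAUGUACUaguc
Mir451a: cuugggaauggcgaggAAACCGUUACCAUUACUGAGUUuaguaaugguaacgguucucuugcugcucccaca
The Mir144 hairpin of 66 bases gives a mature miRNA from either arm. In the Mir451a hairpin of 72 bases the single mature miRNA covers bases 17 to 38 and runs into the loop, as its cleavage by Ago2 requires. A further hairpin, Mir451b, is annotated over the same interval on the opposite strand, and it was not listed. The 3 mature sequences of this locus in the miRNA tables were identical to those of RefSeq. On chromosome 8, the annotated interval of Mir3107 lies within that of Mir486, and both lie within *Ank1*. In miR-486-3p, 20 of the 21 bases in 1 run equal the reverse complement of miR-486-5p, so the stem of this hairpin is almost fully paired.

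All 5 distinct sequences were higher in the MRL/lpr library, which the choice of table fixes, and they differed widely in how far and from what level. MiR-144-3p rested on 13 reads in B6, or 0.387 RPM (95% interval 0.206 to 0.661), against 1130 reads in MRL/lpr, or 37.7 RPM. Its fold of 97.5 (95% interval 56.8 to 184) was the highest of all 109 listed sequences, and it was 27.9 with 1 RPM added to both libraries and 4.59 with 10 RPM added. MiR-451a, the miRNA most strongly tied to the red cell lineage, was counted 11 times in B6 (0.327 RPM, 95% interval 0.163 to 0.585) against 372 times in MRL/lpr (12.4 RPM). Its fold of 38.0 (95% interval 21.0 to 76.7) ranked 2 among the listed sequences, and its interval overlapped that of miR-144-3p. With 1 and 10 RPM added it was 10.1 and 2.17, in both cases below miR-486-5p (12.0 and 11.8). MiR-144-5p, the other arm of miR-144, gave 88 reads (2.62 RPM) against 1684 (56.2 RPM), a fold of 21.5 (95% interval 17.3 to 26.9). This interval overlapped that of miR-451a and lay wholly below that of miR-144-3p.

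MiR-486-5p carried nearly all reads of the group. Counted once for its 2 names, it reached 12909 reads in B6 (383.8 RPM, 95% interval 377 to 390) against 138778 in MRL/lpr (4630 RPM, 95% interval 4606 to 4655). The fold was 12.1 (95% interval 11.8 to 12.3), below the intervals of both arms of miR-144 and of miR-451a. By reads it ranked 17 of the 109 listed sequences in B6 and 7 in MRL/lpr, and it made up 0.212% and 2.13% of the miRNA totals of the authors. MiR-486-3p, its partner strand, was the scarce form, with 57 reads in B6 (1.69 RPM) against 256 in MRL/lpr (8.54 RPM). Its fold of 5.04 (95% interval 3.77 to 6.84) was the smallest of the members and ranked 37.

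**Figure D1:**
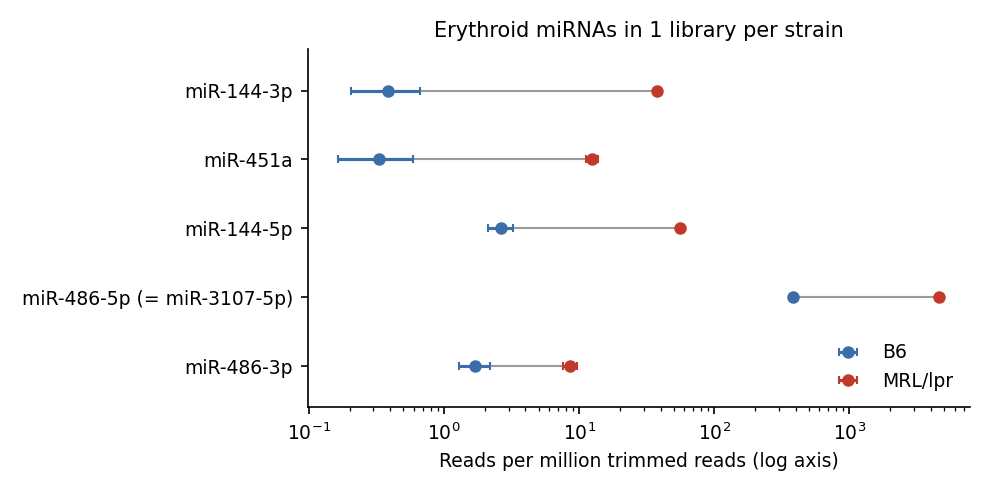
RPM of each erythroid miRNA on a log axis, with B6 in blue and MRL/lpr in red (1 library each); bars are 95% exact counting intervals and a grey line joins the values of 1 miRNA. MiR-486-5p stands at 383.8 and 4630 RPM, while the other 4 lie between 0.327 and 2.62 RPM in B6 and between 8.54 and 56.2 RPM in MRL/lpr.

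Of the 5 sequences 4 were more than 10-fold higher in MRL/lpr, against 18 of all 109 listed sequences, or 16.5%, and 26.5% of the 68 listed as higher. Their median fold was 21.5, beside 5.57 for all 68 higher sequences. Except for miR-486-5p, each member had fewer than 100 reads in B6 and so reached the minimum of the tables through the MRL/lpr library. With 13 and 11 B6 reads, miR-144-3p and miR-451a could be listed only with a fold well above 2. The count above 10-fold and the median fold thus partly follow from this minimum. Outside the group, 7 higher sequences also had fewer than 15 reads in B6. Adding 10 RPM to both libraries left 1 member above 10-fold, miR-486-5p. Scaled to the listed miRNAs outside the erythroid group, however, miR-486-5p was itself 9.43-fold higher. Those miRNAs were all listed for differing 2-fold or more, so they are not a stable reference.

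**Figure D2:**
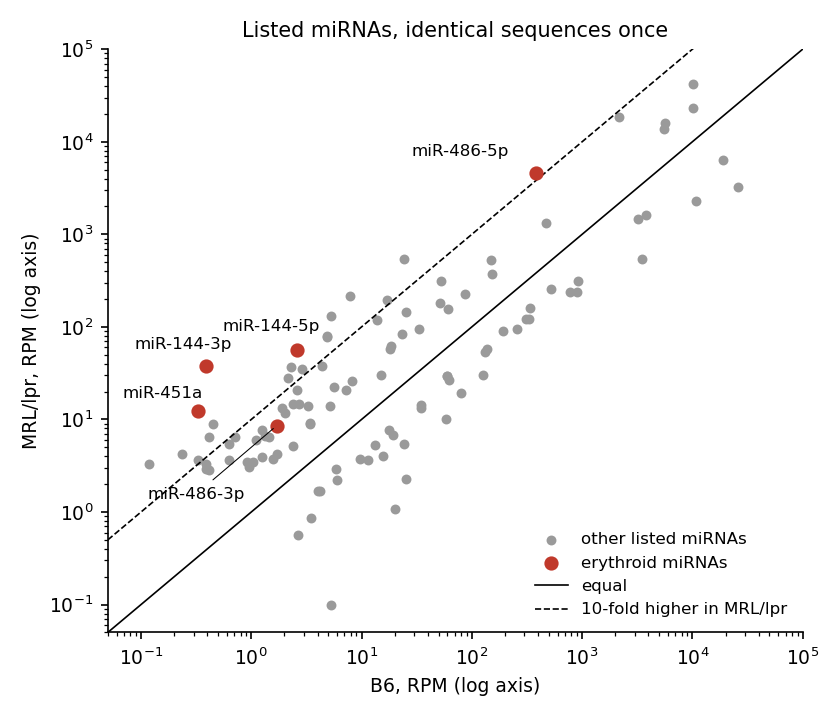
RPM in B6 (x axis) and MRL/lpr (y axis) of the 109 listed sequences, both on log axes, with the 5 erythroid sequences in red; the solid line marks equal RPM and the dashed line a 10-fold higher value in MRL/lpr. MiR-144-3p and miR-451a lie far above the dashed line at low B6 levels, miR-486-5p lies just above it at a high level, and miR-486-3p lies below it.

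Summed over the 5 sequences, the group came to 388.8 RPM in B6 against 4745 in MRL/lpr. Of these sums, miR-486-5p by itself made up 383.8 and 4630 RPM, so they are mainly a level of that miRNA. The ratio of the sums, 12.2 (95% interval 12.0 to 12.4), is one that miR-486-5p sets almost alone. Without it the other 4 summed to 5.02 and 114.8 RPM, a fold of 22.9 (95% interval 19.6 to 26.8). The 3 mature miRNAs of the miR-144 and miR-451a locus on chromosome 11 together went from 112 reads in B6 to 3186 in MRL/lpr, which is 31.9-fold (95% interval 26.4 to 38.9), beside 12.0 (95% interval 11.8 to 12.3) for both arms of miR-486. With 10 RPM added to each miRNA the order turned, with folds of 4.59 for miR-144-3p, 5.25 for miR-144-5p and 2.17 for miR-451a beside 11.8 for miR-486-5p. Which cells the reads came from was not tested, and in bulk RNA more cells of a type and more RNA in each such cell cannot be told apart.

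Ratios between members within a library do not depend on the scaling of that library. The reads of both miR-144 arms numbered 9.18 times those of miR-451a in B6 (95% interval 4.92 to 19.0) and 7.56 times in MRL/lpr (6.79 to 8.45). For the 2 hairpins of the shared transcript, the B6 ratio was 1.21 times the other, with an interval of 0.642 to 2.53. This difference was within the counting error. The interval is wide, with 11 B6 reads of miR-451a, and cannot show that the ratio was kept. Summing the arms of miR-144 also hides that they changed their proportion to each other. Relative to miR-451a and to miR-144, miR-486-5p had fewer reads in MRL/lpr than in B6, although its own level was higher there. Its reads were 1174 times those of miR-451a in B6 (95% interval 656 to 2351) and 373 times in MRL/lpr (337 to 414). They were 128 times those of miR-144 in B6 and 49.3 times in MRL/lpr. Reads were not calibrated between different miRNAs, so these ratios are ratios of reads and need not be those of molecules.

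The 2 arms of miR-144 changed their proportion between the libraries. The 5p arm made up 87.1% of the miR-144 reads in B6 (95% interval 79.0% to 93.0%) and 59.8% in MRL/lpr (58.0% to 61.7%). In B6 there were 6.77 reads of the 5p arm for each of the 3p arm, and in MRL/lpr 1.49, so the 5p to 3p ratio was 4.54 times higher in B6 (95% interval 2.51 to 8.91). The interval compares the reads of these 2 libraries, not the strains, and the B6 value rests on 13 reads of the 3p arm. For miR-486 the shift went the other way. The 5p arm held 99.6% of the reads in B6 and 99.8% in MRL/lpr, with 226 reads of the 5p arm for each of the 3p arm in B6 and 542 in MRL/lpr. The ratio was 2.39 times higher in MRL/lpr (95% interval 1.76 to 3.20), and its 5p reads include any that came from miR-3107-5p.

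Both arms were listed for 13 hairpins, 9 in the table of higher and 4 in that of lower miRNAs. By the size of the change in the 5p to 3p ratio, miR-144 ranked 1 and miR-486 ranked 6 of them. For the other 11 hairpins the ratio changed by a median of 1.59 times and at most by 3.79 times, the latter for miR-21a. Shifts between arms were thus found in other hairpins as well. That of miR-144 was the largest of the 13, from few B6 reads, and its interval of 2.51 to 8.91 includes the value of miR-21a. Hairpins with a single arm listed could not be ranked. In 9 of the 13 hairpins, miR-144 among them, the arm with fewer B6 reads had the higher ratio of MRL/lpr to B6. Among the 9 hairpins listed as higher this held for 6. There an arm with few B6 reads could be listed only with a large ratio. The count thus partly follows from the read minimum and is not a result about arms.

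**Figure D3:**
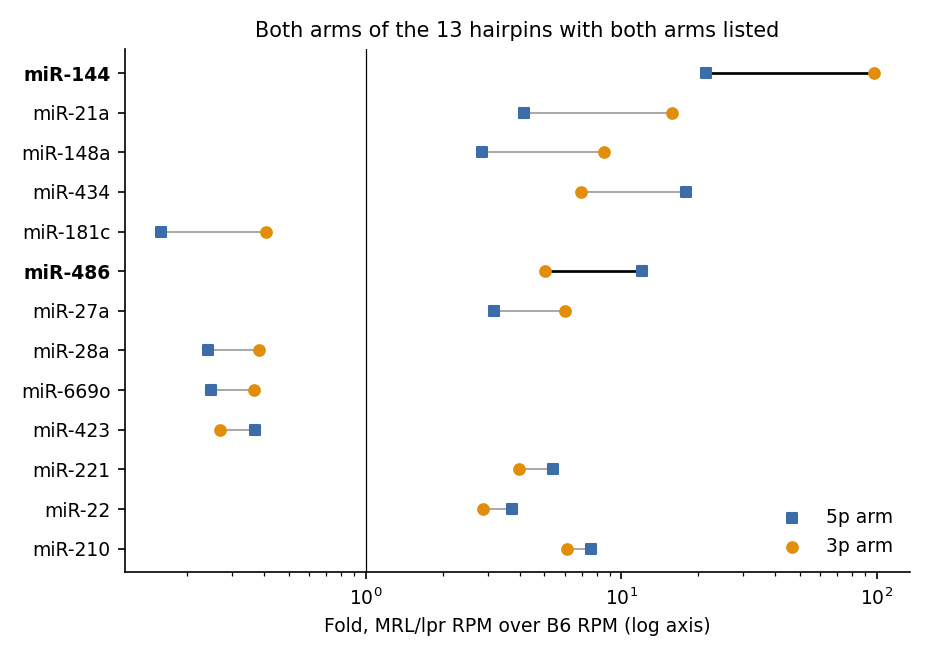
Fold of MRL/lpr over B6 RPM, on a log axis, of the 5p arm (blue squares) and the 3p arm (orange circles) of the 13 hairpins with both arms listed, ordered by the size of the change in the 5p to 3p ratio, with the erythroid hairpins in bold. The arms of miR-144 stand at 21.5 and 97.5 and those of miR-486 at 12.1 and 5.04; the vertical line marks equal RPM.

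MiR-144-3p begins like the miR-101 family, and the 2 miRNAs of that family stood in the table of lower miRNAs. They are shown with bases 2 to 8 in capitals.
miR-144-3p: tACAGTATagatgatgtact
miR-101a-3p: tACAGTACtgtgataactgaa
miR-101b-3p: tACAGTACtgtgatagctgaa
Within the first 8 bases both differ from miR-144-3p by T8C only, counted from the 5′ end, so bases 2 to 7 are shared. MiR-101a-3p was at 191.9 RPM in B6 (6454 reads) against 91.2 RPM in MRL/lpr (2733 reads), a fold of 0.475 (95% interval 0.454 to 0.497). MiR-101b-3p was at 59.8 RPM (2010 reads) against 29.7 RPM (889 reads), a fold of 0.496 (95% interval 0.458 to 0.537). Among the listed miRNAs with these 6 bases, the miR-101 members were thus more abundant than miR-144-3p in B6, and in MRL/lpr miR-144-3p lay between them.

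A list of 16 other hairpins with miRNAs abundant in red blood cells was looked up. Of these hairpins, 5 stood in the miRNA tables, with 7 mature miRNAs, all higher, where 68 of all 109 listed sequences were higher. The list was chosen with earlier results of these data known and need not hold every such miRNA. Their shared direction is therefore not a test. MiR-22-3p, a miRNA of many tissues, was 2.87-fold higher (5616 RPM in B6, 16145 in MRL/lpr). The miR-183 cluster also belongs to this list, although activated T cells make it as well. In it, miR-183-5p was 11.4-fold higher (17.0 and 194 RPM), miR-96-5p 8.09-fold and miR-182-5p 3.51-fold. MiR-210, which rises with low oxygen, was 6.15-fold higher for its 3p arm and 7.60-fold for its 5p arm, and miR-22-5p was 3.73-fold higher. For the 11 hairpins not listed, among them miR-16, miR-92a, miR-25 and miR-93, no values were analysed here, because the tables hold changed miRNAs only.

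Few protein-coding genes of red cells stood in the mRNA tables, which hold predicted targets of changed miRNAs and no others. Their values carry no unit and are read here as FPKM (fragments scaled by transcript length and library size). Of 32 erythroid genes 2 were listed, both higher, where 67.5% of all 652 listed mRNAs were higher. *Tal1*, a transcription factor of blood stem cells and of the red cell and megakaryocyte lineages, was 8.44-fold higher, at 1.23 FPKM in B6 against 10.3 in MRL/lpr. *Tfrc*, the transferrin receptor, which red cell precursors and all dividing cells use to take up iron, had 15.9 and 37.9 FPKM, a fold of 2.38. The defining genes of the list, such as those of haemoglobin, *Alas2* (the first enzyme of haem synthesis in red cells), *Klf1* and *Ank1*, were among the 30 not listed, and their levels are not known here. Of 8 platelet genes only *Ppbp*, a platelet chemokine, was listed, with 0.0332 and 1.67 FPKM. Of 7 myeloid genes, *Itgam* (1.71 and 28.1 FPKM) and *Cd68* (7.28 and 28.7 FPKM) were listed as higher. None of 4 B cell genes was listed. Of 7 CD4 T cell genes the 2 listed were lower, *Tcf7* at 473 and 157 FPKM and *Lef1* at 91.8 and 15.3 FPKM, 2 transcription factors of naive T cells. The part of other cell types in the erythroid miRNA reads was not tested.

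The partner mRNAs belonged to 2 of the 5 sequences. In the prediction list of the study 6 lower mRNAs were assigned to miR-144-3p and 5 to miR-3107-5p, and no gene was assigned to both. MiR-451a, miR-144-5p, miR-486-3p and the name miR-486-5p had no partner in this table. Because miR-486-5p has the sequence of miR-3107-5p, the 5 partners of the latter are partners of both names, while the prediction list uses 1 name of the 2. Over the 51 miRNA names with a partner, the median was 6 and the highest 14.

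*Rasgrp1* was by far the most abundant partner. It encodes the exchange factor that switches on Ras below the T cell receptor, and mice that lack it develop a lupus-like disease. Its level was 70.3 FPKM in B6 against 19.2 in MRL/lpr, so 27.3% of the B6 level was left, a log2 fold of -1.87. By its B6 level it ranked 7 of the 212 lower mRNAs, and by the size of its fall 73. MiR-144-3p was the sole miRNA assigned to it.

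The other partners of miR-144-3p fell into 3 at middle and 2 at low levels. *Slco3a1*, a transporter of organic anions, was at 13.3 FPKM in B6 against 5.39 in MRL/lpr, and miR-411-5p is assigned to it too. *Cd160*, a receptor on natural killer cells and subsets of T cells that binds HVEM, had 8.55 and 2.80 FPKM (log2 fold -1.61), with miR-144-3p alone assigned. *Trio*, an exchange factor for small GTPases, had 5.78 and 1.90 FPKM and is shared with miR-126-5p. *Plat*, the tissue plasminogen activator, had 0.435 and 0.0796 FPKM (log2 fold -2.45) and is shared with miR-501-3p and miR-500-3p. *Smoc1*, a secreted calcium-binding protein, had 0.310 and 0.0852 FPKM. Below 1 FPKM few fragments stand behind a value, so the folds of *Plat* and *Smoc1* are the least certain of the 6.

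Of the partners of miR-3107-5p and miR-486-5p, *Aff3* had the highest level. *Aff3*, a nuclear protein found in lymphoid cells, was at 13.3 FPKM in B6 against 6.27 in MRL/lpr, a log2 fold of -1.09 and close to the minimum of the table. *Klhdc1*, a kelch domain protein, had 5.28 and 2.06 FPKM. *Emid1*, a protein with an EMI domain, had 2.19 and 1.03 FPKM and is shared with miR-125b-5p and miR-351-5p. The largest fall of all 11 partners was that of *Tceal3*, a relative of transcription elongation factor A on chromosome X, with 1.41 and 0.205 FPKM (log2 fold -2.78), which ranked 26 among the lower mRNAs. *Baiap2l1*, a protein that links membranes to actin, had 0.228 and 0.0405 FPKM (log2 fold -2.49) and is shared with miR-126-5p. At such low levels few fragments stand behind either value, so its fold is uncertain as well.

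**Figure D4:**
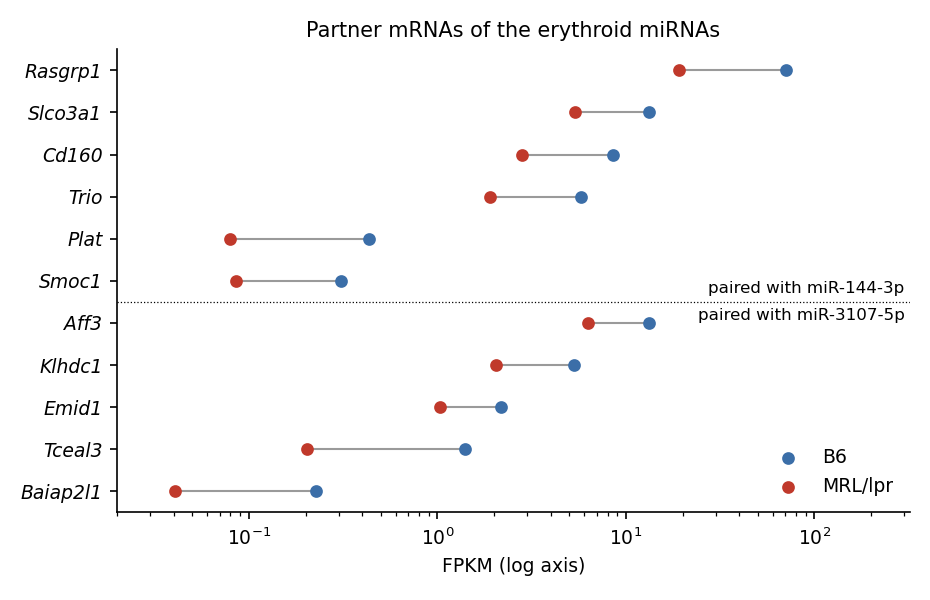
FPKM of the 11 partner mRNAs on a log axis, in B6 (blue) and MRL/lpr (red), 1 library each, grouped by the miRNA assigned to them. *Rasgrp1* stands apart at 70.3 and 19.2 FPKM, while *Plat*, *Smoc1* and *Baiap2l1* lie below 1 FPKM in both libraries.

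The fall of the partners was like that of the table they came from. Their median log2 fold was -1.61, beside -1.56 for all 212 lower mRNAs. It was -1.74 for the 6 partners of miR-144-3p and -1.36 for the 5 of miR-3107-5p. At least 4-fold lower were 3 of the 11 partners, or 27.3%, beside 29.2% of all lower mRNAs. Those 3, *Tceal3*, *Baiap2l1* and *Plat*, had at most 1.41 FPKM in B6, and with 1 FPKM added to both values none of them reached 4-fold. At least 1 FPKM in B6 was found for 8 partners, or 72.7%, beside 56.6% of all lower mRNAs. Since the table lists mRNAs that were already at least 2-fold lower, the direction of these values carries no information.

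**Figure D5:**
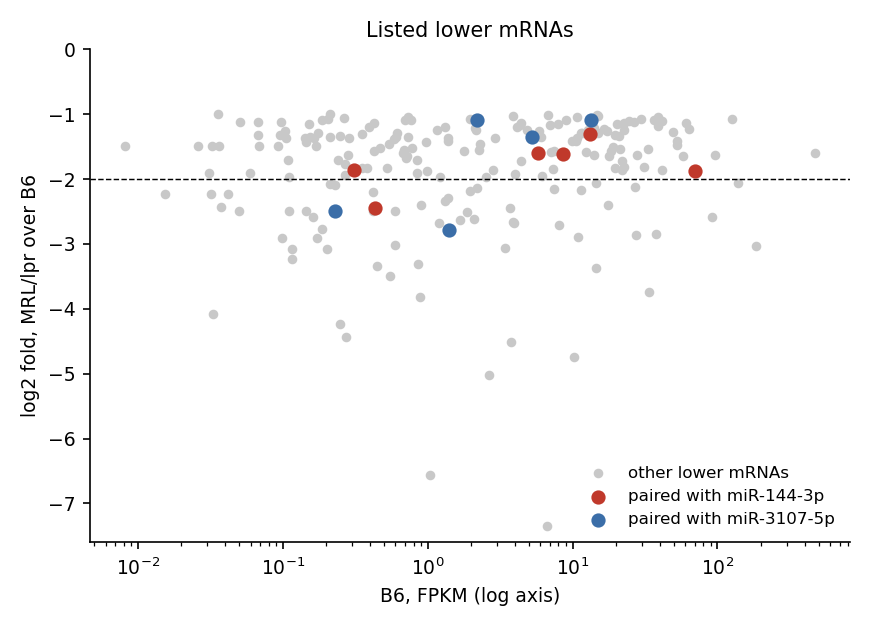
Log2 fold of MRL/lpr over B6 (y axis) against FPKM in B6 (x axis, log scale) of the 212 lower mRNAs, with the partners of miR-144-3p in red and those of miR-3107-5p in blue; the dashed line marks a 4-fold lower value. The 11 partners lie between -1.08 and -2.78, within the range of the other points.

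Of 15 genes known as targets of these miRNAs in red cells or other tissues, 3 were listed, 2 lower and 1 higher. Of all 652 listed mRNAs 67.5% were higher. The 2 lower genes carried no erythroid name in the tables. *Foxo1*, which keeps T cells quiescent and is a known target of miR-486, was at 58.3 FPKM in B6 against 18.5 in MRL/lpr, and miR-96-5p is assigned to it. *Klf13*, a transcription factor of T cells, had 60.7 and 27.6 FPKM and is assigned to miR-125b-5p and miR-153-3p. *Nfe2l2*, which encodes the antioxidant regulator NRF2 and is a known target of miR-144, was higher, with 7.69 and 15.6 FPKM. Higher mRNAs are assigned to lower miRNAs only, so *Nfe2l2* could not carry an erythroid name. *Ywhaz*, a known target of miR-451a, was among the 12 not listed. None of 9 genes that cut or load miRNAs, among them Ago2 and *Dicer1*, was listed either.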

How the data were processed

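Small RNA and mRNA libraries of 1 B6 and 1 MRL/lpr mouse were analysed from the deposited tables. Which aligner, build or miRBase version was used is not given in the sources used here. Per listed mature miRNA the authors gave a read count and its RPM, relative to trimmed reads, and listed miRNAs by a 2-fold and 100-read minimum. The authors deposited mRNA values with no unit, read here as FPKM (fragments scaled by transcript length and library size) because the file headers use Cuffdiff column names. The deposited fold, p-value and q-value columns are the authors' own comparisons and were not used.

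Folds, sums, arm ratios and Clopper-Pearson or conditional exact intervals (95%) were calculated in SciPy 1.17.1 and NumPy 2.4.6 under Python 3.11.15. Plots were made in Matplotlib 3.10.9. Only the intervals of the folds were checked on simulated data, with Poisson counts around the observed reads. Such counts follow the model that the intervals assume and cannot test whether reads are independent. Reads are not independent molecules. Named are all members, all partners and listed genes of the erythroid, platelet, myeloid, B cell, CD4 T cell, known target, miRNA processing and other red cell miRNA lists. Members and lists were chosen with earlier results of these data known. The miRNA names and sequences of miR-144 and miR-451a were matched to RefSeq (GRCm38.p6), which held 3 of the 6 names. Of mRNAs the depth is unknown. Other scalings, added RPM or FPKM, thresholds and level minima were tried.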

Additional observations from a re-analysis of the deposited data

How the results depend on the processing

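Each value rests on 1 mouse per strain, and no alternative measures the spread between mice. No paired analysis was possible because a single library stood for each strain and assay, with no test. The 4 members above 10-fold became 1 with 10 RPM added, 3 at 20-fold, 5 at 5-fold and 5 with every name counted, and stayed at 4 with the lower counting bound, 1 RPM added or the authors' miRNA totals. The summed fold of 12.2 was 22.9 without miR-486-5p and 10.2 scaled to the miRNA totals. These totals divide each fold by 1.20, and the listed miRNAs outside the erythroid group by 1.28, which puts miR-486-5p at 9.43-fold. The latter miRNAs were all listed as changed and are not a stable reference. The fold of the miR-144 and miR-451a reads was 26.6 with the totals, an alternative chosen after seeing the data. Of 20 alternative folds of single members, 12 fell outside the main interval (9 where RPM were added), and the lowest was 1.59. Neither an added value nor a factor of this size can turn such folds. The 11 partners became 8 with at least 1 FPKM in B6, 3 at 4-fold and 6 with erythroid names alone. Their median log2 fold was -1.32 and -0.998 with 0.1 and 1 FPKM added, -1.48 with at least 1 FPKM in B6 and -1.74 with erythroid names alone. The 3 partners at least 4-fold lower became 1 with at least 1 FPKM in B6 and 0 with 1 FPKM added. Depth limits miR-144-3p and miR-451a most, with 13 and 11 reads in B6.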

Other observations

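The table of higher mRNAs holds 32 of 440 genes assigned to miR-101a-3p or miR-101b-3p, the lower miRNAs that share bases 2 to 7 with miR-144-3p, and 29 of them are assigned to both. Their median log2 fold was 1.83, beside 1.99 for all 440 higher mRNAs. All 440 were listed for being at least 2-fold higher and assigned to lower miRNAs, so their direction carries no information. The most abundant of the 32 in B6 was *Fos*, an immediate early transcription factor, at 427 FPKM in B6 against 982 in MRL/lpr. *Ezh2*, the methyltransferase of the Polycomb complex, had 14.1 and 36.4 FPKM, and *Cxcl10*, an interferon-induced chemokine, had 12.3 and 41.9 FPKM.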
